A study of Homo sapiens with 6 samples.

Results

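Heparan sulfate is a sugar chain carried by core proteins at the cell surface and in the matrix, where its sulfate groups bind growth factors such as FGFs, Wnts and VEGF. The chain is polymerised in the Golgi by EXT1 and EXT2, N-sulfated by NDST enzymes, and then sulfated at further positions by the 2-O, 6-O and 3-O sulfotransferases. After secretion, the endosulfatases SULF1 and SULF2 remove 6-O-sulfate from it, and heparanase (HPSE) cuts it. In this way 6-O-sulfation is written by the HS6ST enzymes and erased outside the cell by the SULF enzymes.

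The transcripts of 10 such enzymes, of 20811 genes in the table, were described in HuCCT1, a human intrahepatic cholangiocarcinoma cell line. The 10 genes were picked by name as the main enzymes that build and edit heparan sulfate, with their RPM (reads of a gene scaled to a fixed total per library) in both lines already known, and all 10 were found. Because the comparison between the lines entered that choice, the differences of the 10 enzymes are given as descriptions without a p-value.

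The HuCCT1/CD90+ line was made with human THY1-CMV-GFP (THY1 encodes CD90) and the HuCCT1/CD90- line with the Lenti-CMV-GFP-2A-Puro-Blank lentivirus, both at a multiplicity of infection of 40. Each line gave 3 libraries, and nothing in the labels says that they came from separate cultures, so the spread between them may be technical. The labels name no independent transductions of a line, so an effect of CD90 and a difference between the transduced populations cannot be told apart. The study asked how raised CD90 changes the transcriptome of this tumour line.

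The libraries held 8587634 to 10551516 reads on genes, so that 3 reads, taken here as the detection floor, were worth 0.284 to 0.349 RPM. The reads of THY1 numbered 0, 1 and 0 in HuCCT1/CD90- and 435, 445 and 680 in HuCCT1/CD90+, as the labels have it. Of the 20811 genes, 3138 (15.1%) passed an adjusted p of at most 0.05 (limma, Benjamini-Hochberg over all genes) with at least 1.5-fold change on log2(RPM + 1), the rule meant below by "passed". Of the cholangiocyte keratins, KRT7 and KRT19 were at 3042 RPM or more in every library. The hepatocyte marker ALB and the leukocyte marker PTPRC had at most 1 read in any library, whereas 5 of 7 fibroblast markers passed as lower in HuCCT1/CD90+ (2 when blocked on replicate number). Of the other marker lists, 1 of 5 cholangiocyte and 1 of 3 leukocyte genes passed as higher. As lower, 2 of 4 hepatocyte genes (1 when blocked on replicate number) and 1 of 3 endothelial genes passed.

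Each gene was read over 1 amplicon, so levels are compared between libraries and not between genes. Of the 9 enzymes above the floor, 4 had exactly 1 RefSeq start available, SULF2, EXT2 and HPSE had several, and SULF1 and EXT1 had none. The start regions of those 4 enzymes (2 lower and 2 higher in mean in HuCCT1/CD90+) are shown as the regulatory sequence next to these genes. They are the 250 bases before the RefSeq start (GRCh38.p14), written 5′ to 3′ on the strand of the gene, at chr1:86914385-86914634 (HS2ST1, plus strand), chr2:128318869-128319118 (HS6ST1, minus strand), chr5:150497529-150497778 (NDST1, plus strand) and chr4:11428895-11429144 (HS3ST1, minus strand). Capitals mark the letters GGGCGG (GC box), CACCTG (the E-box read by ZEB and SNAI factors), CATTCC (TEAD) and TGANTCA (AP-1) on either strand.
HS2ST1: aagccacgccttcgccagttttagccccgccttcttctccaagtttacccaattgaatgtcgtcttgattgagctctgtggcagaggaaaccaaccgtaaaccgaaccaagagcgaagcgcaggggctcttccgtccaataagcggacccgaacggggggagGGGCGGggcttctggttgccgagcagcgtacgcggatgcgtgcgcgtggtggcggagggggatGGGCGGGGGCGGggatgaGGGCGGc
HS6ST1: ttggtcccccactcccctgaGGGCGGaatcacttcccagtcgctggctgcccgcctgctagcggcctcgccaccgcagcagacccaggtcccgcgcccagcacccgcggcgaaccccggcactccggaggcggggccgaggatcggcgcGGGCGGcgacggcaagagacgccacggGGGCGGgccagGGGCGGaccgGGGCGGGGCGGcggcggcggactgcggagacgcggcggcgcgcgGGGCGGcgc
NDST1: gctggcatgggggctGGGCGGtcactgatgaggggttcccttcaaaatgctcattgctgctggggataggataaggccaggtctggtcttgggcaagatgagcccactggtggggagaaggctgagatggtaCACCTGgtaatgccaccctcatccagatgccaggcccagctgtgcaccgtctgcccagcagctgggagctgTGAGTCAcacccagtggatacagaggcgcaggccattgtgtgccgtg
HS3ST1: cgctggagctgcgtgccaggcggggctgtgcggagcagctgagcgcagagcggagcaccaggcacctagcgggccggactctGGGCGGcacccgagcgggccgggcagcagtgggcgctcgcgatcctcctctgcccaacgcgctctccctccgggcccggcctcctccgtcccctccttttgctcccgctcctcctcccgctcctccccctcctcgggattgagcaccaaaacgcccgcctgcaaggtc

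The HS2ST1 window held 4 GC boxes and the HS6ST1 window 7, with overlapping matches counted separately, and neither held any of the other 3 motifs. The NDST1 window held 1 GC box, 1 E-box and 1 AP-1 motif, and the HS3ST1 window 1 GC box. Of 35116 windows of this length in the RefSeq table, 42.6% held a GC box, 17.5% the E-box, 11.9% the TEAD motif and 6.57% the AP-1 motif. Among the enzymes with several starts, the windows of SULF2, lower in HuCCT1/CD90+, held 0, 0, 5 and 1 GC boxes. Those of HPSE, also lower, held 0, 2 and 2, and those of EXT2, which was higher, 0, 2 and 2. The E-box was in windows of SULF2 and EXT2, and the TEAD motif in 1 of EXT2. No difference between lower and higher enzymes is read from these matches. They describe the letters of annotated starts, and the start used in HuCCT1 was not measured.

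Of the chain-building enzymes, EXT1 and EXT2, which together form the polymerase, were both higher in HuCCT1/CD90+. EXT1 stood at 295, 303 and 326 RPM in HuCCT1/CD90- and at 359, 393 and 401 RPM in HuCCT1/CD90+. The groups did not overlap, but the difference was small, with a mean 1.25-fold higher and a log2 fold change of 0.32 (standard error, SE, 0.06). EXT2 stood at 1.90, 2.03 and 2.33 RPM in HuCCT1/CD90- and at 3.43, 5.01 and 3.69 RPM in HuCCT1/CD90+. This was a log2 fold change of 0.70 (SE 0.14), which rested on 19 to 43 reads per library.

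NDST1, the N-deacetylase/N-sulfotransferase that opens chain modification, showed the largest excess in HuCCT1/CD90+ of the 9 enzymes above the floor. It went from 96.4, 119 and 113 RPM in HuCCT1/CD90- to 213, 232 and 256 RPM in HuCCT1/CD90+. Every HuCCT1/CD90+ library lay above every HuCCT1/CD90- library. The means were 109 ± 11.5 and 234 ± 21.2 RPM (SD, n = 3 each), a 2.14-fold excess and a log2 fold change of 1.09 (SE 0.11).

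Both internal O-sulfotransferases that were well read were lower in HuCCT1/CD90+. HS2ST1, which sulfates the uronic acid at the 2-O position, was at 60.3, 89.1 and 62.7 RPM in HuCCT1/CD90- and at 31.9, 37.6 and 32.9 RPM in HuCCT1/CD90+. HS6ST1, a 6-O-sulfotransferase, was at 103, 121 and 98.0 RPM in HuCCT1/CD90- and at 51.8, 57.5 and 54.3 RPM in HuCCT1/CD90+. Neither gene had an overlap between the lines, and for both genes replicate 2 was the highest library in each line. The log2 fold change was -1.01 (SE 0.18) for HS2ST1 and -0.96 (SE 0.10) for HS6ST1. HS6ST1 has an annotated pseudogene, HS6ST1P1, and reads shared with it could not be told apart. HS6ST2, the other 6-O-sulfotransferase among the 10 genes, was not read in HuCCT1/CD90- (0 reads in each library) and gave 0, 3 and 1 reads in HuCCT1/CD90+, which is at or under the floor in both lines, so no fold is given.

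HS3ST1, which makes the 3-O-sulfate that antithrombin binds, was higher in HuCCT1/CD90+, with the widest SE of the 4 enzymes that were higher. Its levels were 55.6, 103 and 71.6 RPM in HuCCT1/CD90- and 108, 142 and 105 RPM in HuCCT1/CD90+. The highest HuCCT1/CD90- library, replicate 2, came within a few RPM of the lowest HuCCT1/CD90+ library. The log2 fold change was 0.65 (SE 0.27), and between libraries of the same replicate number the difference on log2(RPM + 1) ran from 0.46 to 0.95.

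**Figure D1:**
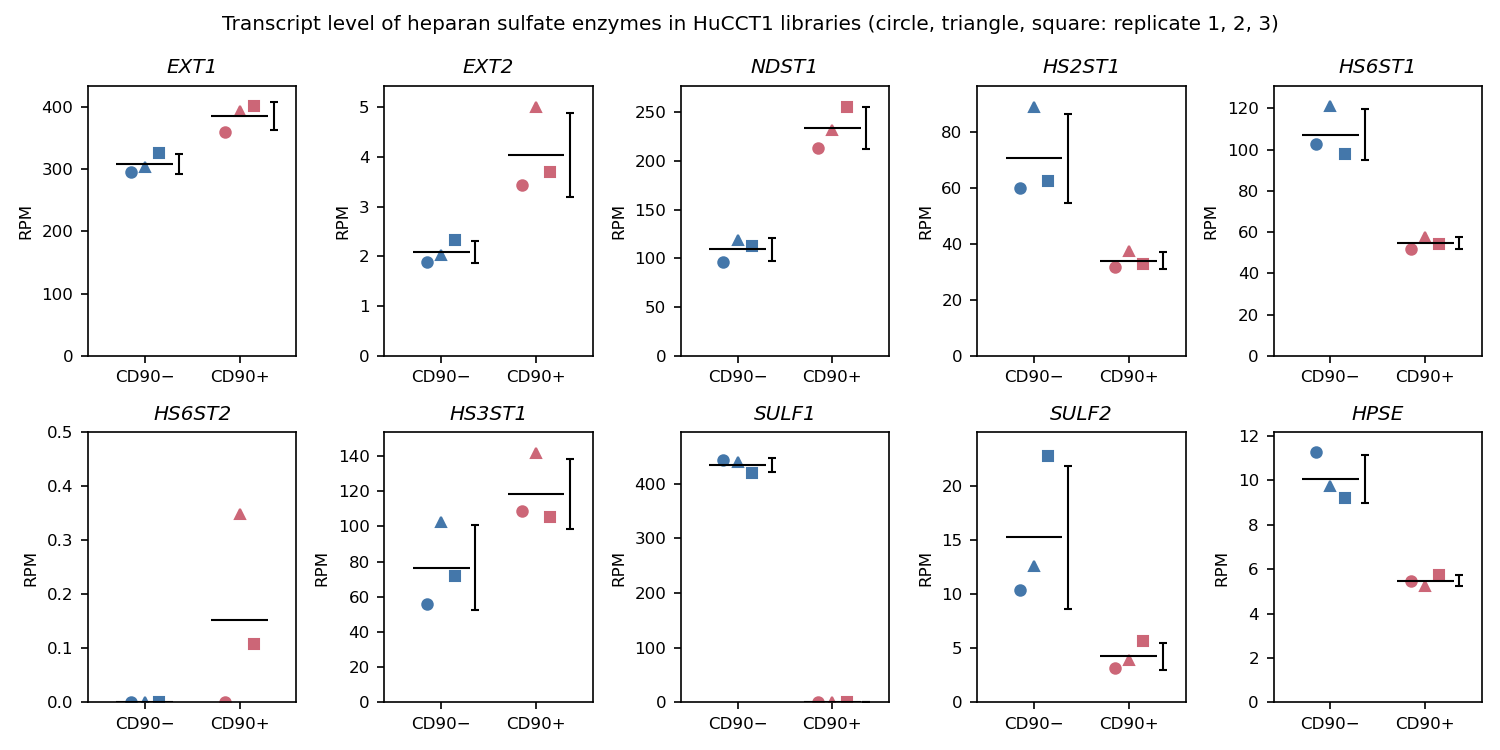
Level of each of the 10 heparan sulfate enzymes in RPM (vertical axis, from 0, with its own scale per gene) in the 3 HuCCT1/CD90- and 3 HuCCT1/CD90+ libraries. Horizontal lines are means and bars beside them 1 SD (n = 3, not drawn for HS6ST2, which had at most 3 reads in any library); SULF1 is at 419 RPM or more in HuCCT1/CD90- and 0.349 RPM or less in HuCCT1/CD90+, and HS6ST2 is the only gene whose lines overlap.

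The enzymes that edit the finished chain were all lower in HuCCT1/CD90+. SULF1 was at 444, 440 and 419 RPM in HuCCT1/CD90- and at 0.107, 0.349 and 0.109 RPM in HuCCT1/CD90+. In reads this was 4688, 4109 and 4318 against 1, 3 and 1, so the gene was at the detection floor in the whole of HuCCT1/CD90+. Over the pooled reads the level in HuCCT1/CD90- was 2356-fold that in HuCCT1/CD90+, with an exact 95% interval from 1009 to 7257 that covers counting error only.

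SULF2, the other endosulfatase, was lower as well. It was at 10.4, 12.6 and 22.8 RPM in HuCCT1/CD90- and at 3.22, 3.96 and 5.64 RPM in HuCCT1/CD90+. Replicate 3 was the highest library in both lines, and the groups did not overlap. The log2 fold change was -1.58 (SE 0.35), from 110 to 235 reads per HuCCT1/CD90- library and 30 to 52 per HuCCT1/CD90+ library. HPSE, the endoglycosidase heparanase, was at 11.3, 9.74 and 9.22 RPM in HuCCT1/CD90- and at 5.47, 5.24 and 5.75 RPM in HuCCT1/CD90+. Its log2 fold change was -0.77 (SE 0.08), and its HuCCT1/CD90+ libraries were the closest together among the 10 enzymes on the scale of their mean (SD 0.256 RPM around 5.49 RPM).

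SULF1 is also made by fibroblasts and other mesenchymal cells. The 7 fibroblast markers COL1A1, COL1A2, COL3A1, DCN, LUM, PDGFRA and PDGFRB summed to between 41.8 and 65.3 RPM per HuCCT1/CD90- library, and to between 20.4 and 24.7 RPM per HuCCT1/CD90+ library. LUM ranged from 17.2 to 38.1 RPM in HuCCT1/CD90- and from 5.15 to 9.77 RPM in HuCCT1/CD90+, DCN from 2.27 to 11.2 RPM and from 0 to 0.116 RPM, and PDGFRB from 5.12 to 6.11 RPM and from 0.582 to 0.858 RPM. COL1A2 and COL3A1 were at 0.321 to 1.26 RPM in HuCCT1/CD90- and had 0 reads in all HuCCT1/CD90+ libraries. COL1A1 ranged from 11.2 to 15.5 RPM in HuCCT1/CD90- and from 14.0 to 14.3 RPM in HuCCT1/CD90+, and PDGFRA was at 0.388 RPM or less throughout. The part of such cells in the SULF1 result was not tested, and fewer cells of a kind and less RNA per cell cannot be told apart in bulk RNA.

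Counted together, 5 of the 10 enzymes were lower in HuCCT1/CD90+ without overlap between the lines and 4 were higher without overlap, where 35.0% of all genes had no overlap (17.3% higher, 17.7% lower), and 52.6% of genes averaging 1 RPM or more. By the rule for passing, 7 of the 10 were counted, 5 lower (SULF1, SULF2, HS2ST1, HS6ST1, HPSE) and 2 higher (NDST1, EXT2), beside 15.1% of all genes (7.59% higher, 7.49% lower) and 24.1% of genes averaging 1 RPM or more. Since this comparison entered the choice of the enzymes, nothing is read from either count, nor from which enzymes were still counted under the settings that follow. Such calls use values already known at that choice and are not tests of the enzymes. The count was 6 with the replicate number as a block, where EXT2 was not counted. With 1 library left out, SULF1, HS6ST1, HPSE and NDST1 were counted each time, SULF2 and EXT2 never, and HS2ST1 only without HuCCT1/CD90- replicate 2, which made 5 enzymes there and 4 for each other library. EXT1 was under the fold limit, and SULF2 and HS3ST1 had the widest SEs.

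Genes near each other can differ together between 2 lines, so each enzyme was set beside the 40 closest genes on its chromosome (20 on each side where the chromosome allows) that averaged 10 RPM or more. NDST1 (chromosome 5) and HS6ST1 (chromosome 2) had neighbours with median log2 fold changes of 0.01 and 0.02. HS2ST1 (chromosome 1) had neighbours at -0.30, and its own value minus theirs was -0.71. SULF1 (chromosome 8), SULF2 (chromosome 20) and HPSE (chromosome 4) were lower while the medians around them were higher, at 0.33, 0.18 and 0.24. HS3ST1, also on chromosome 4, was higher while its neighbours had a median of -0.26. EXT1 (0.13) and EXT2 (0.22) differed in the direction of their neighbours, and the value of EXT1 lay inside the middle range of its region.

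**Figure D2:**
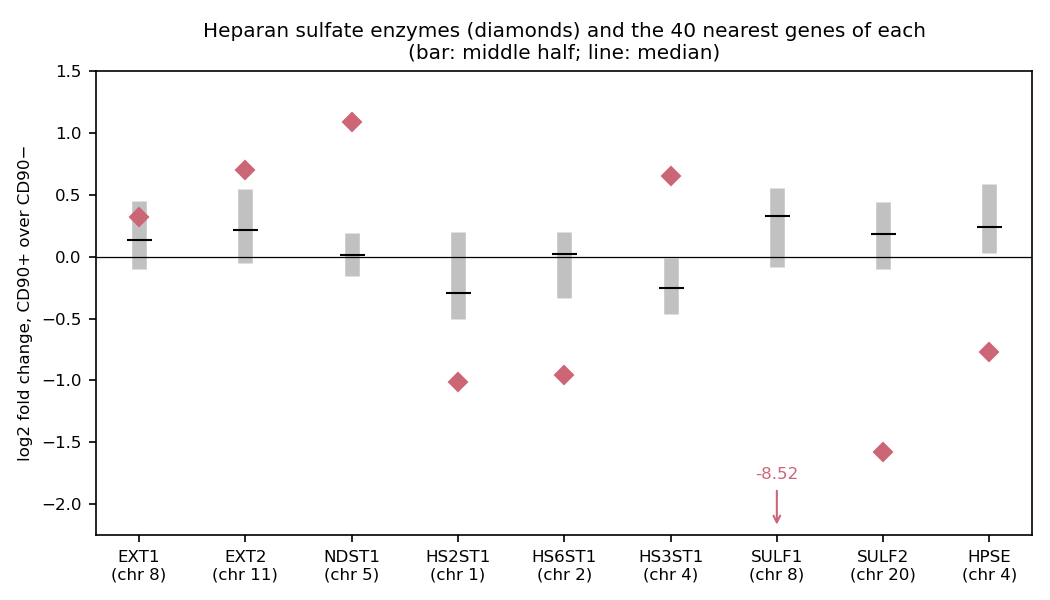
Log2 fold change of HuCCT1/CD90+ over HuCCT1/CD90- on log2(RPM + 1) (vertical axis) for the 9 enzymes above the floor (diamonds) and for the 40 nearest genes of each that averaged 10 RPM or more (grey bar, interquartile range; black line, median). SULF1, at -8.52, lies below the axis; EXT1 is the only diamond inside its bar.

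The rest of the heparan sulfate pathway was examined with 4 lists of other genes, 42 of them in the table. Of these, 7 passed (16.7%, beside 15.1% of all genes), 2 higher and 5 lower in HuCCT1/CD90+, and blocking on replicate number left 0 higher and 6 lower. Their median log2 fold change was -0.05, against 0.00 over all genes.

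The linker that joins the chain to its core protein was represented by 7 genes, of which 2 passed, both lower in HuCCT1/CD90+. XYLT1, a xylosyltransferase that starts the linker, went from 41.2, 39.7 and 39.8 RPM to 11.7, 9.66 and 8.68 RPM. On the log2 scale this fall came to -1.91 (SE 0.11; limma adjusted p = 0.0015), and it passed with any 1 library left out. XYLT2, the second enzyme with that activity, stood at -0.12 on that scale (95% interval -0.37 to 0.13; limma adjusted p = 0.52). FAM20B, the kinase that phosphorylates the linker xylose, fell from 124 ± 18.8 to 64.0 ± 4.87 RPM (SD, n = 3 each; log2 fold change -0.94, adjusted p = 0.016, limma). It lies on chromosome 1, and its 40 neighbours had a median log2 fold change of -0.32. B3GALT6, a linker galactosyltransferase, had 116, 67.5 and 73.4 RPM in HuCCT1/CD90- and 52.7, 35.9 and 40.5 RPM in HuCCT1/CD90+. It did not pass (adjusted p = 0.087, limma), and the block on replicate number brought this to 0.035, edgeR to 0.00061 and DESeq2 to 5.6e-05. Leaving out 1 library moved the adjusted p of FAM20B to between 0.013 and 0.063, above the threshold without HuCCT1/CD90- replicate 3 or any 1 HuCCT1/CD90+ library.

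Of 17 other genes for chain building, modification and sulfatase maturation, 0 passed in limma, with 3 at an unadjusted p under 0.05, 2 by edgeR and 2 by DESeq2. Of the 17, 7 genes were at or under the floor in both lines, among them NDST3, NDST4, HS6ST3, HS3ST4 and HS3ST6 with 0 reads throughout. NDST2, the other N-sulfotransferase that was read, differed by -0.22 on the log2 scale (SE 0.18; limma adjusted p = 0.54), while NDST1 stood at 1.09. HS3ST3A1, a 3-O-sulfotransferase whose product herpes simplex virus uses for entry, had 2.75, 3.32 and 2.72 RPM in HuCCT1/CD90- and 4.40, 7.57 and 6.19 RPM in HuCCT1/CD90+. On the log2 scale it differed by 0.82 (SE 0.20; limma adjusted p = 0.055), and without HuCCT1/CD90+ replicate 1 its adjusted p was 0.028. The adjusted p was 0.0063 in edgeR and 0.011 in DESeq2. The near-identical HS3ST3B1 could share its reads. SUMF1, which activates sulfatases, SULF1 and SULF2 included, differed by -0.24 (SE 0.12; limma adjusted p = 0.26). GLCE, the epimerase that precedes 2-O-sulfation, was at 47.4, 35.2 and 65.7 RPM and at 30.6, 30.5 and 31.8 RPM, with an adjusted p of 0.18 in limma, 0.0082 in edgeR and 0.0059 in DESeq2.

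Donor supply was covered by 10 genes, of which 2 rose and 1 fell. UXS1, which makes UDP-xylose, rose from 39.9 ± 6.86 to 64.3 ± 3.28 RPM (SD, n = 3 each; log2 fold change 0.69, adjusted p = 0.041, limma). UGP2, which makes UDP-glucose, rose from 35.6 ± 5.68 to 54.3 ± 3.20 RPM (a log2 difference of 0.60, adjusted p = 0.048, limma). Neither passed with the replicate number as a block (adjusted p = 0.13 and 0.11), and neither passed with any 1 library left out. Without HuCCT1/CD90- replicate 1 they were under the fold limit (log2 fold changes of 0.54 and 0.47), and without each other library their adjusted p was above 0.05, up to 0.13 for UXS1 and 0.14 for UGP2 (limma). SLC35D1, a Golgi and ER carrier of UDP-sugars, fell from 8.10 ± 0.868 to 4.49 ± 0.355 RPM (a log2 difference of -0.73, adjusted p = 0.011, limma). Its neighbours on chromosome 1 had a median of -0.41. The genes of the sulfate donor PAPS did not pass, PAPSS1 with a log2 fold change of -0.27 and PAPSS2 with -0.91 (adjusted p = 0.29 and 0.19, limma). PAPSS2 passed without HuCCT1/CD90+ replicate 3 (adjusted p = 0.031, limma), and by edgeR (adjusted p = 0.025) and DESeq2 (adjusted p = 0.040).

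Lysosomal breakdown was covered by 8 genes, of which 2 fell and 0 rose. ARSG, the lysosomal 3-O-sulfatase, fell from 1.80 ± 0.389 to 0.230 ± 0.309 RPM (SD, n = 3 each; adjusted p = 0.027, limma). It had 16, 21 and 17 reads in HuCCT1/CD90- and 0, 5 and 1 in HuCCT1/CD90+, where its mean RPM was under the floor. Its log2 fold change of -1.21 ran from -2.99 (DESeq2) to -0.38 (offset of 5 RPM), and with an offset of 0.1 RPM ARSG did not pass. With 1 library left out its adjusted p was 0.021 to 0.098, and it was kept only without HuCCT1/CD90+ replicate 2. SGSH, the N-sulfatase, was listed with 0 reads in all 6 libraries. GUSB, the β-glucuronidase, had an adjusted p of 0.035 (limma) but a log2 fold change of 0.50, under the fold limit.

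**Figure D3:**
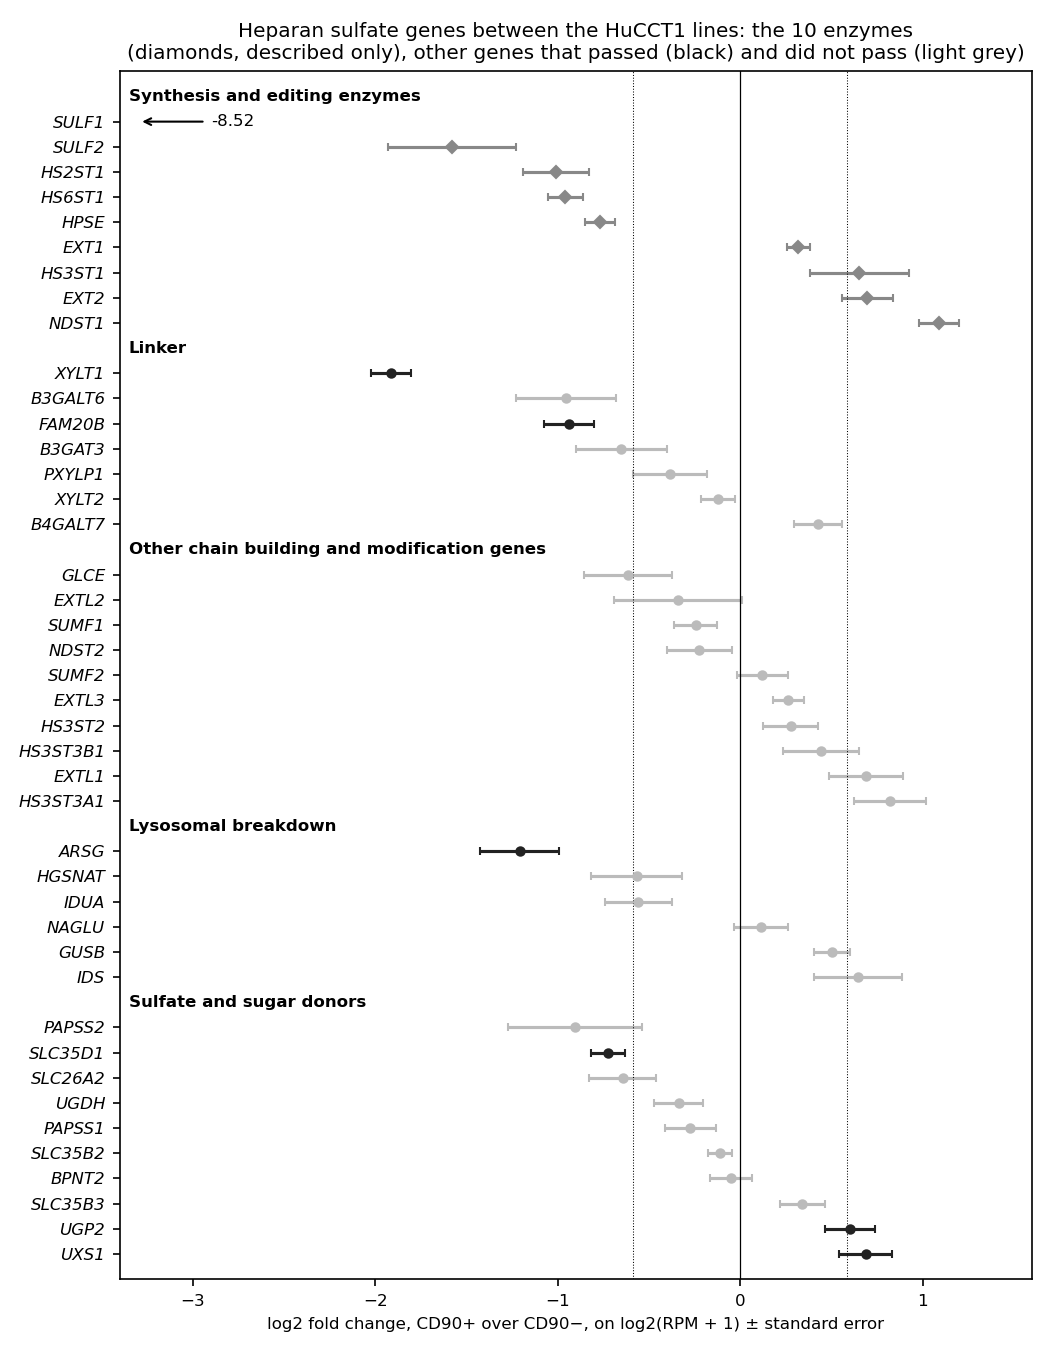
Log2 fold change of HuCCT1/CD90+ over HuCCT1/CD90- on log2(RPM + 1) with its SE (horizontal axis) for the heparan sulfate enzymes described (grey diamonds) and for the other genes of the pathway reported here that were above the floor in at least 1 line, by step. Black points passed an adjusted p of at most 0.05 and 1.5-fold (dotted lines), light grey points did not; SULF1 is off the axis at -8.52, and XYLT1, at -1.91, is the lowest of the other genes.

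Among 13 core proteins that carry heparan sulfate, 2 rose and 2 fell, where 15.1% of all genes and 24.1% of genes averaging 1 RPM or more passed. GPC6 fell from 28.8 to 0.224 RPM and COL18A1 from 389 to 88.7 RPM, whereas GPC4 rose from 0.0713 to 17.6 RPM and SDC2 from 6.52 to 90.4 RPM. The adjusted p ran from 0.0011 to 0.0090 (limma), and that of SDC2 was 0.051 with the replicate number as a block. GPC6 had 1, 3 and 2 reads in HuCCT1/CD90+ and GPC4 0, 2 and 0 in HuCCT1/CD90-. Both were thus at or under the floor there, so no fold is given.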

How the data were processed

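Total RNA of 3 libraries per line was reverse-transcribed, amplified with an Ion AmpliSeq gene panel and read on the S5 Prime instrument. Raw reads came from the ampliSeqRNA plugin, and the authors deposited RPM for 20811 genes, 3805 of them at 0 in all libraries. The submitters' processing notes name hg19, and the table holds no coordinates, so GENCODE 29 (GRCh38) was used only to order genes. In each library, 100% of the deposited RPM values were whole multiples of 1 read within 0.0006 RPM, so whole reads were recovered.

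Differences were tested with limma 3.58.1 (R 4.3.3; lmFit and eBayes, no block) on log2(RPM + 1) over all 20811 genes, after the limma eBayes test named in the study's methods, with 3 libraries a line and no filter. This scale understates the change of low genes. The fit was tested on simulated data. Alternatives were other offsets, filters, scalings, call rules and eBayes settings, a replicate block, each library left out, and edgeR 4.0.16 and DESeq2 1.42.0 on recovered reads.

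The enzymes and lists were chosen with earlier results of these data known. The genes named are the 10 enzymes, THY1, markers, up to 6 genes per list that passed with a mean of at least 1 RPM, and their enzyme relatives. Further genes named with adjusted p above 0.05 were chosen after their values were seen. PXYLP1 and BPNT2 were matched by older symbols and 1 chondroitin gene, CHST12, is not analysed here. Of the genes counted in the lysosomal list, 1 counted in the lysosomal list is not reported here. Deviations of same-numbered libraries from their line means correlated with r = 0.21, 0.32 and 0.18 (other pairs -0.29 to 0.07), and on this check alone the block, an alternative to the unblocked fit whose calls are given, was read as a paired fit. No pair of libraries held identical values.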

Additional observations from a re-analysis of the deposited data

How the results depend on the processing

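No alternative reversed a direction among the 10 enzymes or the 16 other genes whose change was followed. Of the 10 enzymes, 7 were past the call rule, and 4 with an offset of 5 RPM or a 2-fold limit. The number was 4 to 5 with 1 library left out, and 8 with a filter at 1 RPM, edgeR or DESeq2. Nothing is read from these numbers, since the comparison entered the choice of the enzymes. All genes numbered 3138, 1874 at a 2-fold limit and 1868 to 2414 with 1 library left out (1868 without HuCCT1/CD90+ replicate 3, 2083 without HuCCT1/CD90- replicate 3) and 2102 with the replicate block, but 3911 with median centring, 4011 with the filter, 4186 by unadjusted p, 4200 with edgeR and 4238 with DESeq2. The other lists had few genes, so single genes near the threshold moved their counts. Linker genes (2 passed) numbered 4 with a filter at 1 RPM, edgeR or DESeq2, 1 at 2-fold and 1 to 3 with 1 library left out. Other chain genes (0 passed) numbered 2 with the filter, edgeR, DESeq2 or unadjusted p, 1 with quantile normalization or median centring and 0 to 2 with 1 library left out. Lysosomal genes (2 passed) numbered 1 with an offset of 0.1 or 5 RPM or at 2-fold, 4 with edgeR and 0 to 2 with 1 library left out. Donor genes (3 passed) numbered 1 with an offset of 5 RPM or the replicate block, 5 with the filter, edgeR or DESeq2, 0 at 2-fold and 1 to 2 with 1 library left out. Chondroitin and dermatan sulfate genes (4 passed) numbered 2 with the replicate block and 1 to 5 with 1 library left out. Beyond the filter, offset, call rule and smaller sample themselves, the cause was not tested. The log2 fold change of SULF1 ran from -11.2 (DESeq2) to -6.40 (offset of 5 RPM), since it depends on the offset where HuCCT1/CD90+ has almost no reads. With the replicate number as a block, SDC2, UXS1, UGP2, CHST15 and CHPF2 did not pass, and the other 10 genes named from the lists did. EXT2 and HS6ST2, with few reads, are limited by depth.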

Other observations

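Chondroitin and dermatan sulfate share the linker with heparan sulfate, and 15 enzymes of that branch were in the table. Of these, 3 rose and 1 fell in HuCCT1/CD90+, with a median log2 fold change of -0.02, where 7.59% of all genes rose and 7.49% fell, and 24.1% of genes averaging 1 RPM or more passed. UST, which adds 2-O-sulfate to chondroitin and dermatan sulfate, rose from 1.80, 3.42 and 2.62 RPM to 8.36, 10.2 and 11.5 RPM (a log2 difference of 1.63, adjusted p = 0.012, limma). Its adjusted p was 0.033 with the replicate number as a block and at most 0.052 with 1 library left out, above the threshold without HuCCT1/CD90- replicate 3 or HuCCT1/CD90+ replicate 2 or 3. CHST15, which forms the disulfated chondroitin sulfate E unit, rose from 20.1 ± 5.86 to 61.4 ± 5.91 RPM (SD, n = 3 each; adjusted p = 0.019, limma, and 0.072 with the block), and was lost without HuCCT1/CD90- replicate 2 or any 1 HuCCT1/CD90+ library (adjusted p up to 0.078). CHPF2, a chondroitin polymerising factor, rose from 3.88 to 7.26 RPM (adjusted p = 0.043, limma, and 0.13 with the block; up to 0.13 with 1 library left out, and kept only without HuCCT1/CD90+ replicate 2), on chromosome 7 where its 34 neighbours had a median log2 fold change of 0.47. DSEL, a dermatan sulfate epimerase, fell from 7.52 ± 1.42 to 2.39 ± 0.352 RPM (a log2 difference of -1.32, adjusted p = 0.010, limma).

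Over the 6 libraries, the genes closest to SULF1 in their centred log2(RPM + 1) profile, among 8794 genes averaging 10 RPM or more, were SELP, SPARC and MXRA5, with root mean square differences of 0.22, 0.35 and 0.59. Those closest to NDST1 were RBMS2, PRKRIP1 and MFGE8, at 0.067, 0.068 and 0.069. These profiles mainly carry the step between the lines, so likeness in 6 libraries is a description only.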
